A study of Mus musculus with 2 samples.

Results

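The 40 genes described here encode the machinery that brings glucose into retinal cells, breaks it down to pyruvate, turns pyruvate into lactate or admits it to the mitochondrion, and carries lactate across membranes. They were taken from a fixed list of genes of glycolysis, glucose and lactate transport, and pyruvate control, and found on the arrays through the RefSeq transcript accession of each non-control probe. All 40 had at least 1 probe, 60 probes in all, among 21367 genes and 55677 probes on the arrays. Retinas of mice were taken on postnatal day 12, and their total RNA was read in Cy3 on Agilent arrays, 1 for Samd7 KO and 1 for wild type. Samd7 encodes a sterile alpha motif protein of photoreceptors. How many animals gave each RNA, their strain, and which part of the gene was removed are not given in the sources used here. There was no replicate, so no test between the genotypes was possible, and every difference below is between these 2 arrays.

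The retina is known for aerobic glycolysis: photoreceptors turn most of the glucose they take up into lactate even when oxygen is plentiful. Glucose reaches them from the choroid through the pigment epithelium, and lactate leaves through monocarboxylate transporters, which need the glycoprotein basigin to reach the cell surface. Where an enzyme has several isoforms, each is typical of some tissues, so that hexokinase, enolase and pyruvate kinase isoforms can mark different cells.

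Signals are given as log2 intensity relative to the 75th percentile of the same array, and differences as the knockout-labelled array minus the wild-type-labelled array. Both arrays lay on 1 slide, and no spot was saturated. The targeted gene went against its label: the single named Samd7 probe read 6.47 on the knockout-labelled array and 4.68 on the wild-type-labelled array, a difference of 1.78, and whether that probe lies in the removed part is not known here. For this reason the arrays are called by their labels. Of 13 rod markers, 12 had a difference below 0, with a median of -0.28, and 1 was at least 2-fold lower. Of 12 cone markers, 8 were above 0 and 4 below, with a median of 0.60, and 5 were at least 2-fold higher. Over all named genes measured on both arrays, 58.1% were below 0. Lens markers differed most: 8 of 10 were at least 2-fold higher, and their summed linear level was 19.7 on the knockout-labelled array and 4.51 on the wild-type-labelled array, in units of the 75th percentile. The part of these marker differences in the values of the 40 genes and their neighbours was not tested. In whole retina, fewer cells of a type and less RNA per cell cannot be told apart.

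The typical difference over the 40 genes was small and close to that over all named genes. Of the 40, 38 were above background on both arrays, the leukocyte hexokinase gene Hk3 on the wild-type-labelled array only, and the pyruvate dehydrogenase kinase gene Pdk4 on neither. The median difference of the 38 genes was -0.03, against -0.02 over all 15256 named genes measured on both arrays. A total of 21 of the 38 (55.3%) lay within 0.1 of 0 on the log2 scale, as did 55.9% of all named genes. Among the 32 that had a mean log2 signal of 0 or more, 19 (59.4%) lay as close, against 67.4% of named genes as bright. The difference was below 0 for 26 of the 38 (68.4%), and for 58.1% of all named genes.

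**Figure D1:**
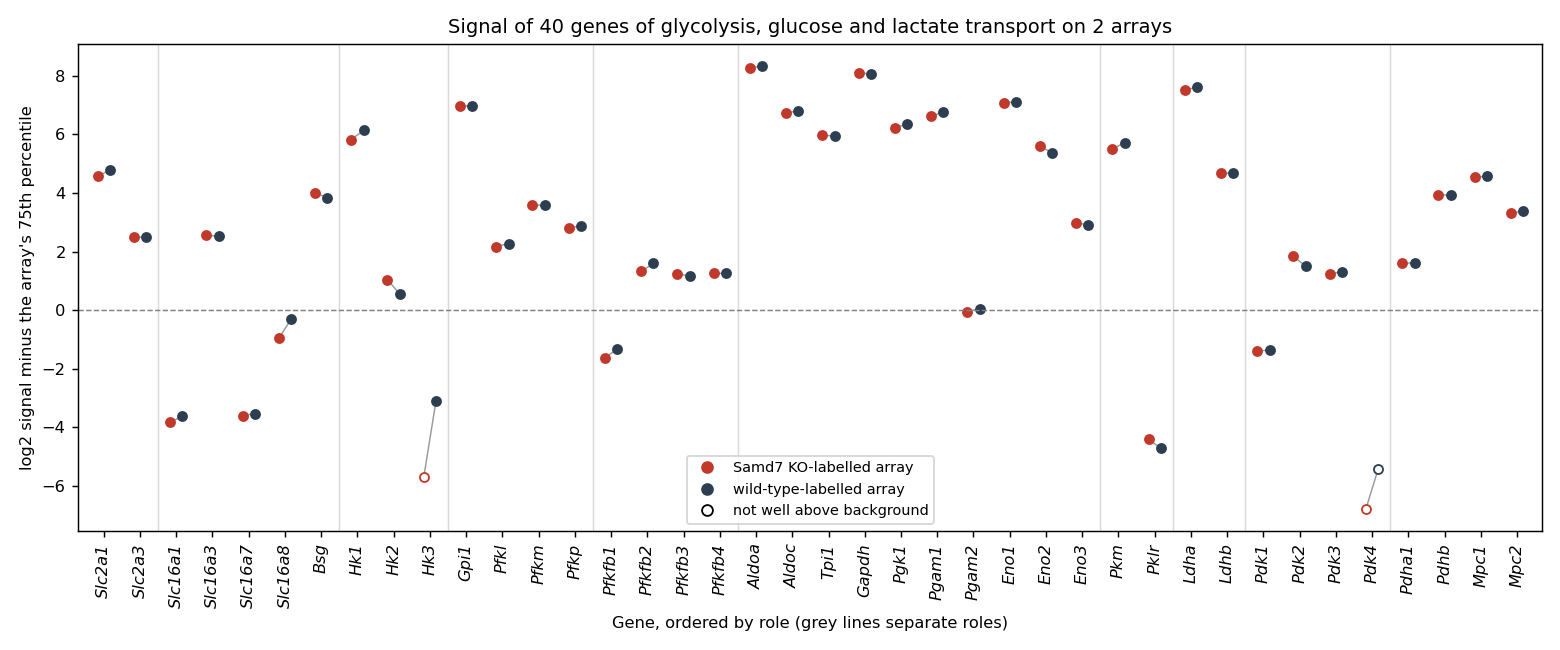
The log2 signal of each of the 40 genes relative to the array's 75th percentile is plotted for the Samd7 KO-labelled array (red, left of each pair) and the wild-type-labelled array (dark, right), with open circles where the spot was not well above background. The widest gaps are those of Slc16a8, Hk2 and the dim genes Hk3 and Pdk4. Heights of different genes cannot be set against each other, because probes differ in brightness.

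On the knockout-labelled array no gene of the 40 was 2-fold higher or more, where 1.58% of the 15930 named genes above background on at least 1 array were. Only Hk3, by a bound, was at least 2-fold lower, where 1.37% of the named genes were. At the smaller threshold of 1.2-fold, 3 genes were higher (Hk2, Pdk2 and Pklr), beside 7.85% of all named genes. Another 5 were lower (Slc16a8, Hk1, Hk3, Pfkfb1 and Pfkfb2), beside 9.71% of all named genes. Such differences were fewer among brighter genes: of the 8728 named genes with a mean log2 signal of 0 or more, 4.47% were 1.2-fold higher and 3.54% 1.2-fold lower. Of the 32 genes of the list that were as bright, 2 were higher (Hk2 and Pdk2) and 2 lower (Hk1 and Pfkfb2). None of the 32 reached 2-fold, which 0.928% of the brighter named genes did upward and 0.218% downward.

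Measurement error was gauged in a pair of ways, both within an array and neither covering the spread between animals. Probes spotted repeatedly gave a technical SD of the difference of 0.05 where the mean log2 signal was at least 0. It was 0.09 between -2 and 0, 0.19 between -4 and -2, and 0.37 for the dimmest probes. The scanner software's own error estimate was wider, with a median SD of the difference of 0.20 over the 38 genes. Among the brighter genes read from a single spot it hardly varied, from 0.2040 (as for Slc2a1) to 0.2042 (Pgam2). For such genes a multiple of the estimate therefore acts as a nearly fixed fold threshold, not as a separate check of each gene. Only Slc16a8 and Hk2 differed by more than 1.96 times that estimate, which is 5.26% of the 38, whereas 6.21% of all named genes measured on both arrays did so. Among the 32 brighter genes it was Hk2 alone, beside 4.37% of brighter named genes. The share of such genes was thus near that of the array as a whole.

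**Figure D2:**
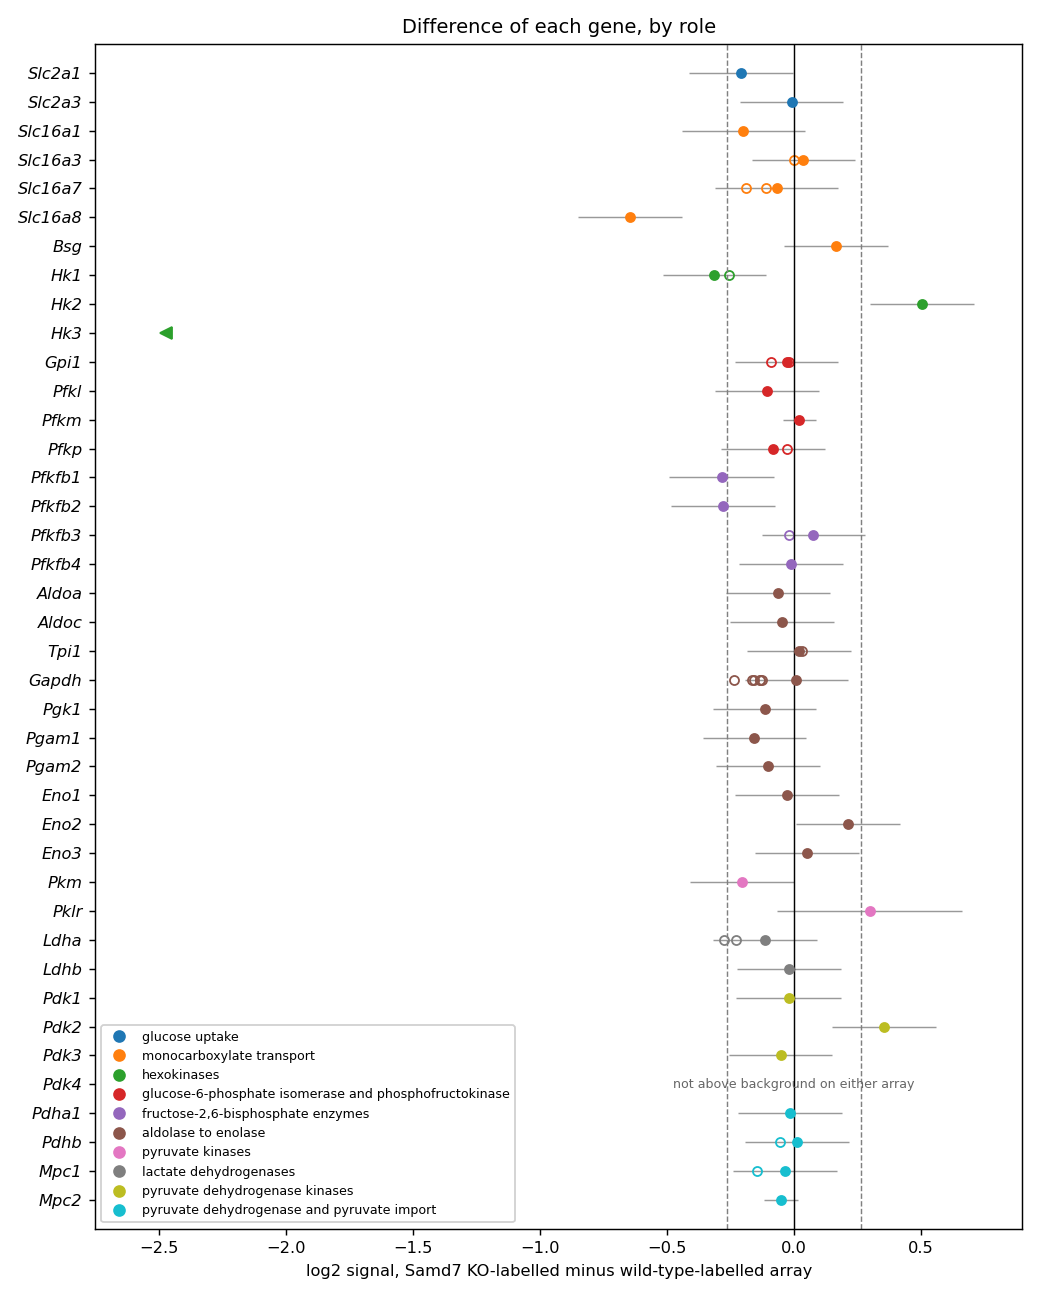
Each row is a gene, coloured by role, and the horizontal axis is the log2 signal on the Samd7 KO-labelled array minus the wild-type-labelled array. Filled circles are the brightest probe with 1 SD of the scanner software's error estimate, open circles the other probes above background on both arrays, the triangle is a bound for Hk3, and dashed lines mark 1.2-fold. Slc16a8 stands at -0.65 and Hk2 at 0.50, while most genes lie between the dashed lines.

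The promoters of the 3 genes measured on both arrays with the largest differences are shown, picked by the size of the difference. They come from RefSeq (build GRCm38.p6), which held a window of 250 bases before to 50 bases after the start for 37 of the 40 genes; Slc2a3, Slc16a7 and Bsg had none. Capitals mark ACGTG on either strand, the core letters bound by hypoxia-inducible factors, and the E-box CACGTG, which holds those letters on both strands; no base of these windows matched TAATCC, the letters of a Crx-type site. The Slc16a8 window is chr15:79254699-79254998 on the minus strand, that of Hk2 chr6:82774405-82774704 on the minus strand, and that of Pdk2 chr11:95041322-95041621 on the minus strand.
Slc16a8: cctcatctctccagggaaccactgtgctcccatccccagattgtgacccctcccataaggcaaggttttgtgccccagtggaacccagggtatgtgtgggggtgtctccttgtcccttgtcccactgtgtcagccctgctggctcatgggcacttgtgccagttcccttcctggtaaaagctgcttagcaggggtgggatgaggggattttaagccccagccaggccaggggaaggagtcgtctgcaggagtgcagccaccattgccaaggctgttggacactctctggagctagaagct
Hk2: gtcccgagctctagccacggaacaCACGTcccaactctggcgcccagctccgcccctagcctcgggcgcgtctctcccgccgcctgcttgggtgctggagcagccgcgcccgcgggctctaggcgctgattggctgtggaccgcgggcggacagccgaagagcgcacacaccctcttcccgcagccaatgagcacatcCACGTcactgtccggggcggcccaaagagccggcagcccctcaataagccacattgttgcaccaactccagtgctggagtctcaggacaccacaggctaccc
Pdk2: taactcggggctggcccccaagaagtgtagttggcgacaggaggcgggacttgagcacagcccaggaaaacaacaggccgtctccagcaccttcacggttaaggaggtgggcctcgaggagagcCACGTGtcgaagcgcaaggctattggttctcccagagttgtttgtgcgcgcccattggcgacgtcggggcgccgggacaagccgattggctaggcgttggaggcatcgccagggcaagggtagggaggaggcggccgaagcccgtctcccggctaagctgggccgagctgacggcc

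The Hk2 window held ACGTG at 2 places and no E-box, and the Pdk2 window held 1 E-box, while the Slc16a8 window held neither. Pdk2 has 2 listed starts and the window of only 1 is shown, so its E-box may not hold for the other start. Among the 37 promoter windows, 16 (43.2%) held ACGTG, against 19.7% of 27025 RefSeq windows of the same length. An E-box stood in 5 of the 37 (13.5%), against 7.24% of all, and TAATCC in 3 (8.11%), against 7.16% of all. The genes with ACGTG and measured on both arrays numbered 15 and had a median difference of -0.05. The 20 measured genes without it had a median of -0.03. The 27025 windows were not matched to the 37 for base composition, so these shares do not show an enrichment beyond it. A match of letters is a description of the window and not a binding site.

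Glucose enters the photoreceptor and Müller cell mainly through the transporter encoded by Slc2a1. Its log2 signal was 4.57 on the knockout-labelled array and 4.78 on the wild-type-labelled array, a difference of -0.21, or 1.16-fold. The value is about 4 times the technical SD at that signal but about equal to the scanner's error estimate of 0.20. Slc2a3, the neuronal glucose transporter, read 2.49 on both arrays and differed by -0.01.

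Lactate and pyruvate cross membranes through the Slc16 family, and the member of the pigment epithelium stood apart from the others. Slc16a8, which exports lactate from the basal side of the pigment epithelium, read -0.96 on the knockout-labelled array and -0.31 on the wild-type-labelled array. Its processed signal before scaling was 285 on the knockout-labelled array and 463 on the wild-type-labelled array, above background on both. The difference of -0.65 (1.56-fold lower) was 3.15 times the scanner's error estimate, and 236 of the 15256 named genes (1.55%) lay as far below 0. It ranged from -0.65 to -0.57 over the other ways of processing.

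Pigment epithelium markers moved the same way as Slc16a8. Of the 10 markers in that list, all were above background, 9 were below 0 and 7 were at least 1.2-fold lower, with a median difference of -0.36 and a range from -0.81 to 0.15. Rlbp1, counted among the 9, differed by only -0.0001 and is also on the list of Müller glia markers. Summed on the linear scale, in units of the 75th percentile, the level of the 10 came to 44.4 on the knockout-labelled array and 52.2 on the wild-type-labelled array. Without Rlbp1, the brightest, the sum was 22.03 on the knockout-labelled array and 29.82 on the wild-type-labelled array. The part of the pigment epithelium in the Slc16a8 difference was not tested.

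The other monocarboxylate carriers differed little. Slc16a1, the widely used lactate carrier, read -3.82 on the knockout-labelled array and -3.62 on the wild-type-labelled array, and the difference of -0.20 is close to the technical SD of 0.19 at so dim a signal. Slc16a3, the carrier typical of lactate-exporting cells, read 2.56 on the knockout-labelled array and 2.52 on the wild-type-labelled array, and its other probe differed by 0.002. Slc16a7, a carrier with high affinity for pyruvate, was dim, at -3.60 on the knockout-labelled array and -3.53 on the wild-type-labelled array. Its 3 probes gave differences from -0.19 to -0.07, all below 0.

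Bsg, which encodes basigin, the partner that takes these carriers to the membrane, had a difference above 0. It read 4.0 on the knockout-labelled array and 3.84 on the wild-type-labelled array, a difference of 0.17 that is larger than the technical SD of 0.05 and smaller than the scanner's error estimate of 0.20. Of the 4 carriers and their partner, 3 were below 0 and 2 above, with a median of -0.07.

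Hexokinase, which traps glucose in the cell as its phosphate, was the step whose isoforms differed most. Hk2, the hexokinase that photoreceptors add to the ubiquitous form, read 1.04 on the knockout-labelled array and 0.54 on the wild-type-labelled array. That is a difference of 0.50, or 1.42-fold higher, with 389 named genes (2.55%) as far above 0. The difference was 2.47 times the scanner's error estimate and stayed between 0.41 and 0.52 over the other ways of processing.

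Hk1, the ubiquitous hexokinase of neurons, lay on the opposite side. It read 5.82 on the knockout-labelled array and 6.14 on the wild-type-labelled array, which makes it 1.24-fold lower at -0.31. A second, dimmer Hk1 probe read 1.97 on the knockout-labelled array and 2.23 on the wild-type-labelled array and gave -0.26. Both Hk1 probes thus pointed the same way, and 953 named genes (6.25%) were as far below 0 as the brighter one.

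Hk3, the hexokinase of myeloid cells, was seen on the wild-type-labelled array only. Its log2 signal there was -3.09, while on the knockout-labelled array it measured -5.70, not well above background. Taken against the lowest signal of any spot called above background on the knockout-labelled array, Hk3 was 5.54-fold lower there. That floor is taken over all spots and is not the detection limit of the Hk3 spot, so the fold is not a firm lower limit. Normexp background correction adds an offset of 50, which pulls dim differences toward 0, and was followed by quantile normalization. With it the Hk3 value was -0.72 on the log2 scale and no longer 2-fold. Of 6 microglia markers, all above background, 5 were below 0, with a median difference of -0.15. The exception was Itgam, at 0.33 by its brightest probe, with -0.58 as the lowest of its 3 probes. The summed level of the list was 20.6 on the knockout-labelled array and 19.6 on the wild-type-labelled array. Without Itgam it was 9.17 on the knockout-labelled array and 10.5 on the wild-type-labelled array, and any part of microglia in the Hk3 value was not tested.

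The next steps, from isomerase to phosphofructokinase, were level. Gpi1, the glucose phosphate isomerase, read 6.95 on the knockout-labelled array and 6.98 on the wild-type-labelled array, and its 3 probes differed by -0.09 to -0.02. The muscle-type phosphofructokinase Pfkm, averaged over 10 spots, read 3.60 on the knockout-labelled array and 3.57 on the wild-type-labelled array. Pfkp, the platelet-type form that is common in brain, gave -0.08 and -0.03 in its 2 probes. The liver-type form Pfkl was the lowest of the 3 phosphofructokinase genes, at -0.11, with 2.17 on the knockout-labelled array and 2.27 on the wild-type-labelled array.

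Of the 4 Pfkfb genes, whose enzymes make and break the sugar phosphate that activates phosphofructokinase, 2 were lower past 1.2-fold. Pfkfb2, the form known from heart, read 1.32 on the knockout-labelled array and 1.60 on the wild-type-labelled array, a difference of -0.28. Pfkfb1, the form known from liver, read -1.62 on the knockout-labelled array and -1.33 on the wild-type-labelled array, also a difference of -0.28. Each of the 2 had a single probe, and both differences exceeded the technical SD but not 1.96 times the scanner's error estimate. With normexp both came to lie under 1.2-fold, at -0.23 for Pfkfb2 and -0.25 for Pfkfb1, and with cyclic loess Pfkfb2 did so at -0.26. Pfkfb3, the inducible form with the strongest kinase activity, differed by 0.08, and by -0.02 in its dim second probe. Pfkfb4 differed by -0.01. A second Pfkfb4 probe was not above background on either array.

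The trunk of the pathway from aldolase to enolase had a median difference of -0.04 over its 10 genes, and none reached 1.2-fold. Aldoa and Aldoc, the aldolases of muscle and brain, differed by -0.06 and -0.05. The triose phosphate isomerase gene Tpi1 read 5.97 on the knockout-labelled array and 5.94 on the wild-type-labelled array, with 0.02 and 0.03 in its 2 probes. Phosphoglycerate kinase, Pgk1, was at -0.11, with 6.23 on the knockout-labelled array and 6.34 on the wild-type-labelled array. Pgam1, the main phosphoglycerate mutase, was the lowest of the 10, at 6.61 on the knockout-labelled array and 6.77 on the wild-type-labelled array.

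Enolase isoforms spread around 0. Eno2, the enolase of neurons, was the highest of the trunk genes: it read 5.59 on the knockout-labelled array and 5.38 on the wild-type-labelled array, a difference of 0.21 or 1.16-fold. Eno1, the ubiquitous form, read 7.08 on the knockout-labelled array and 7.11 on the wild-type-labelled array. Its difference of -0.03 became 0.03 with quantile normalization, and a near-identical gene copy, Eno1b, could add to its signal. The muscle forms Eno3 and Pgam2 gave 0.05 and -0.10. Of 6 muscle markers, Ckm, Myh2 and Tnnt3 were not above background on either array and the other 3 were dim, with a summed level of 0.696 on the knockout-labelled array and 0.683 on the wild-type-labelled array.

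Gapdh, often used as a reference gene, depended on the probe. Its 7 probes, all for the same transcript, gave differences from -0.24 to 0.01. The brightest of them read 8.09 on the knockout-labelled array and 8.07 on the wild-type-labelled array and was the only one above 0. The dimmest read 4.98 on the knockout-labelled array and 5.22 on the wild-type-labelled array. The 6 others thus put Gapdh lower on the knockout-labelled array, and the mean over all 7 was -0.13. Processed copies of Gapdh are many in the mouse genome, so its probes may share signal with them, and the same uncertainty holds for Aldoa, Pgk1, Pgam1 and Ldha, which also have near-identical copies.

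**Figure D3:**
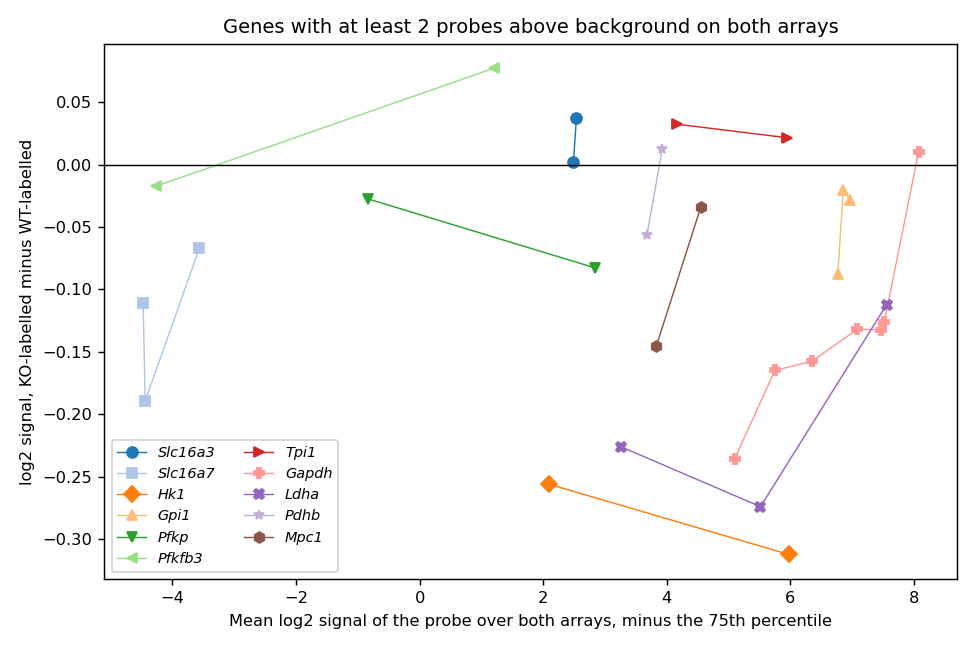
For the 11 genes with several measurable probes, the difference of each probe (Samd7 KO-labelled minus wild-type-labelled, log2) is plotted against its mean log2 signal, with the probes of a gene joined by a line. Gapdh runs from -0.24 at its dimmest probe to 0.01 at its brightest, and the brightest Ldha probe lies above its dimmer ones.

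Ldha, the subunit that favours making lactate from pyruvate, showed a similar spread. Its brightest probe read 7.5 on the knockout-labelled array and 7.62 on the wild-type-labelled array, a difference of -0.11. The other Ldha probes gave -0.27, with 5.38 on the knockout-labelled array and 5.66 on the wild-type-labelled array, and -0.23, with 3.15 on the knockout-labelled array and 3.38 on the wild-type-labelled array. All 3 were below 0, and their mean was -0.20. Ldhb, the subunit that favours the reverse reaction, read 4.67 on the knockout-labelled array and 4.69 on the wild-type-labelled array.

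In 8 of the 11 genes with several probes above background on both arrays, the dimmest probe gave a lower difference than the brightest. Over all 4131 such genes on the arrays this was so in 53.8%. All probes lay on the same side of 0 in 8 of the 11 genes, with 6 of these wholly below 0. The matching shares over the 4131 genes were not computed, so these counts cannot be called high or low for the arrays. The median range between probes of a gene was 0.07 for the 11 genes and 0.10 over all 4131.

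Pyruvate kinase, the last step of glycolysis, had isoforms on opposite sides of 0. Pkm, the form of photoreceptors and most other cells, read 5.5 on the knockout-labelled array and 5.71 on the wild-type-labelled array, a difference of -0.20. Which of the Pkm splice forms its single probe reads is not known here. Pklr, the form of liver and red blood cells, read -4.41 on the knockout-labelled array and -4.71 on the wild-type-labelled array, which is 1.23-fold higher. That difference of 0.30 was under the technical SD of 0.37 at so dim a signal and was 0.07 with normexp.

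Red blood cell markers lay on the same side as Pklr. Of 7 listed, 6 had a named probe and 5 were above background; 4 of these 5 were above 0, and the differences ran from -0.52 to 0.44 with a median of 0.30. Their summed level was 89.98 on the knockout-labelled array and 72.1 on the wild-type-labelled array. The part of these cells in the Pklr value was not tested.

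Whether pyruvate goes on to the mitochondrion is set by the pyruvate dehydrogenase kinases, which switch the dehydrogenase off. Pdk2, the most widely expressed of them, read 1.85 on the knockout-labelled array and 1.49 on the wild-type-labelled array. It was 1.28-fold higher, at 0.36, with 642 named genes (4.21%) as far above 0. This exceeded the technical SD of 0.05 but was 1.74 times the scanner's error estimate, and the value was 0.27 with normexp. Pdk1, a hypoxia-responsive kinase, read -1.39 on the knockout-labelled array and -1.37 on the wild-type-labelled array. Pdk3 differed by -0.05. Pdk4, the kinase of fasting, was not above background on either array, so no direction can be given.

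The dehydrogenase and the pyruvate carrier were level. Pdha1 and Pdhb, the subunits of its first component, differed by -0.02 and 0.01. Mpc1 and Mpc2, which together form the mitochondrial pyruvate carrier, differed by -0.03 and -0.05, although the second Mpc1 probe gave -0.15. All 4 genes lay within 0.1 of 0 by their brightest probe.

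**Figure D4:**
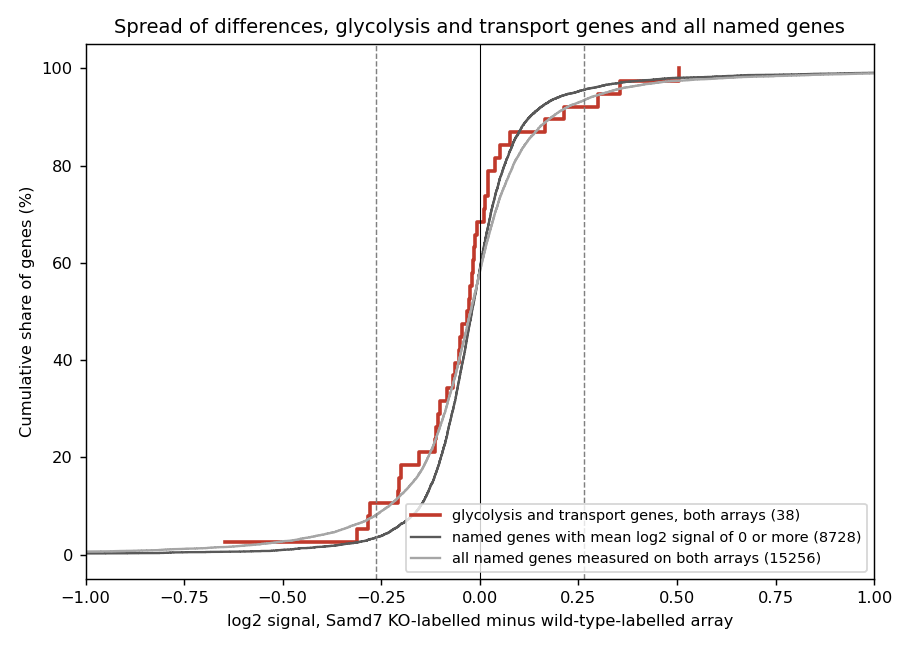
The cumulative share of genes (percent, vertical) is plotted against the log2 difference, Samd7 KO-labelled minus wild-type-labelled array, for the 38 measured genes of glycolysis and transport (red), for 8728 named genes with a mean log2 signal of 0 or more (dark grey) and for all 15256 named genes measured on both arrays (light grey). The red steps run close to the grey curves, and dashed lines mark 1.2-fold.

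The lists of genes next to the pathway had medians between -0.09 and 0.04, while 3 single genes were several-fold higher. Txnip, whose product restrains glucose uptake and binds thioredoxin, read 2.84 on the knockout-labelled array and 0.40 on the wild-type-labelled array, a 5.42-fold difference, with 2.26 on the log2 scale in its other probe. Mlxip, a transcription factor that senses glucose phosphate and is known to drive Txnip, was 3.81-fold higher by 1 probe. It read -0.51 on the knockout-labelled array and -2.44 on the wild-type-labelled array. Its other probe was not above background on either array. Any part of Mlxip in the Txnip difference was not tested. H6pd, a pentose phosphate enzyme of the endoplasmic reticulum, read 0.72 on the knockout-labelled array and -1.23 on the wild-type-labelled array, or 3.85-fold higher by its single probe. These 3 differences lay between 1.52 and 2.46 on the log2 scale under every alternative run for them.

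Regulators of glycolysis had a median difference of 0.02 over 19 genes, but were spread more widely than the named genes as a whole. At 1.2-fold, 4 (21.1%) were higher and 3 (15.8%) lower, beside 7.85% and 9.71% of all named genes, and their median absolute difference was 0.19, beside 0.09 over all named genes. The list was chosen with earlier results of these data known, so its wider spread cannot be read as a trait of such regulators. Lowest were Nxnl2 (-0.52) and Nxnl1 (-0.33, with -0.27 in its other probe), genes of the rod-derived cone viability factors, the second of which acts through basigin and the glucose transporter of cones. Nxnl1 read 2.09 on the knockout-labelled array and 2.42 on the wild-type-labelled array. The hypoxia targets outside glycolysis had a median of -0.04 over 9 measured genes, with Ankrd37 (-0.27) and Ndrg1 (-0.24) lowest and Adm (0.10) and P4ha1 (0.03, or -0.07 as the mean over its probes) highest.

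**Figure D5:**
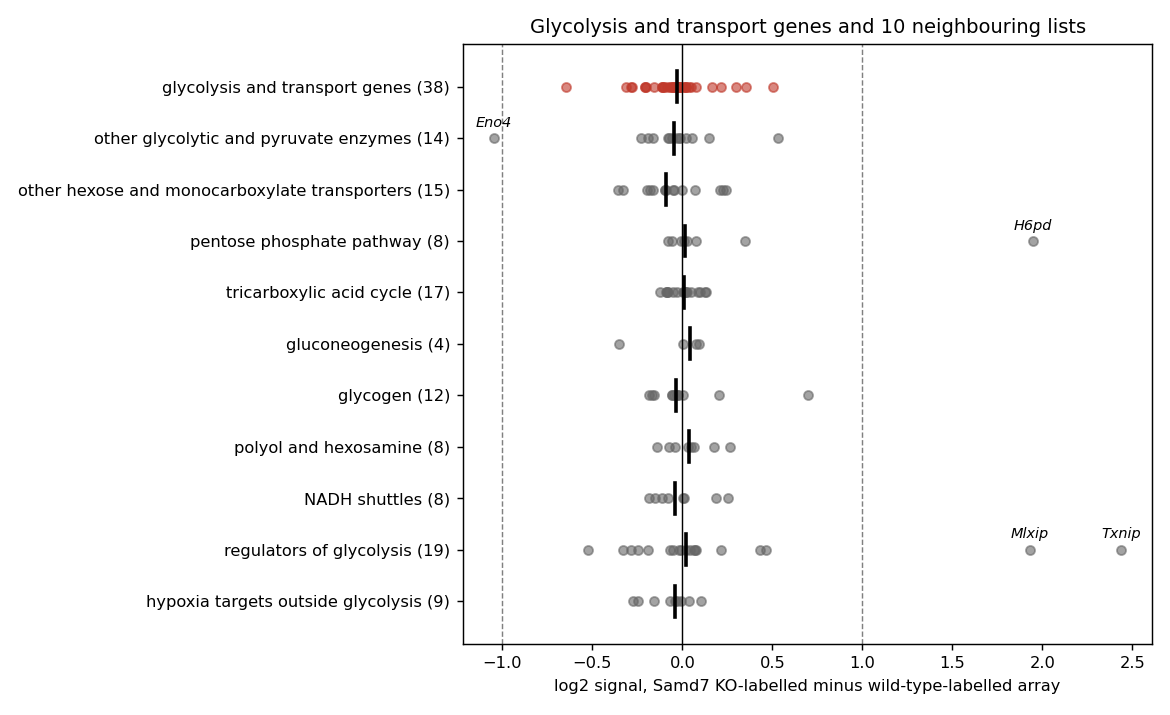
Differences on the log2 scale (Samd7 KO-labelled minus wild-type-labelled array) are plotted for the 38 measured genes of glycolysis and transport (red) and for the measured genes of 10 neighbouring lists (grey), with the number of genes in brackets, thick bars at the medians and dashed lines at 2-fold. Only Txnip, Mlxip, H6pd and Eno4 lie past 2-fold.

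In the pentose phosphate pathway, 1 of 8 genes above background was 2-fold higher and none 2-fold lower; after H6pd, Taldo1 was at 0.35, G6pdx at -0.08 and Tkt at -0.06. All 17 genes of the tricarboxylic acid cycle lay between -0.13 (Idh2) and 0.13 (Sdha), with Idh3a at 0.12 and Sdhb at -0.09. Among 15 other glycolytic and pyruvate enzymes above background, Eno4, an enolase known from sperm, was 2.06-fold lower (-0.61 with normexp), Ldhd was at -0.23, Pcx at 0.15 and Adpgk at 0.53 (1.45 with its dim second probe averaged in). Of 16 other hexose and monocarboxylate transporters above background, none reached 2-fold, and Slc5a2 (-0.36), Slc5a1 (-0.33), Slc16a14 (0.24) and Slc2a5 (0.23) were the extremes measured on both arrays. With normexp Slc5a2 came to -0.06 and Slc5a1 to 0.045.

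The remaining lists had medians from -0.04 to 0.04 and no gene 2-fold apart. Among the glycogen genes, Pgm1 was at -0.17, Gys2 at 0.21 and Pgm2 at 0.70, the last a phosphoglucomutase gene that read -1.53 on the knockout-labelled array and -2.23 on the wild-type-labelled array. Pgm2 was at 0.33 with normexp, and Gys2 at 0.61 with the mean over its probes. Gluconeogenesis genes ran from Fbp1 (-0.35) and G6pc (0.01) to G6pc3 (0.08) and Pck2 (0.09). Polyol and hexosamine genes ran from Gfpt1 (-0.14) and Sord (-0.07) to Ogt (0.18) and Gfpt2 (0.27), with Ogt at 0.11 and Gfpt1 at -0.04 as means over probes. NADH shuttle genes ran from Gpd2 (-0.18) and Got2 (-0.15) to Slc25a13 (0.19) and Slc25a12 (0.25).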

How the data were processed

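Linear intensity values of Cy3 were deposited by the authors in scanner output of Agilent Feature Extraction 11.5.1.1 (protocol GE1_1105_Oct12, an mm9 design), per the file headers. A value table that the authors deposited holds the same intensity values multiplied by a constant per array (log2 ratio to the scanner signal 1.37 on the knockout-labelled and 1.31 on the wild-type-labelled array; how it was set is not given in the sources used) and served as an alternative. Of 59305 non-control spots, 36143 on the knockout-labelled array and 35745 on the wild-type-labelled array were well above background by the scanner's call; 163 and 119 spots with outlier flags were left out.

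Processed signals were turned into log2 values minus the array's 75th percentile, spots of a probe were averaged, and probes were named by unversioned accession in a RefSeq table of GRCm38.p6 (28330 of 55677 probes, 50.9%, had 1 symbol, 0 several and 27347 none). The brightest probe stood for a gene. A probe above background on 1 array gave a bound. It was taken against the probe's own value on the other array or that array's lowest signal called above background, whichever was higher. With 1 array a group no p-value exists, and the number of arrays limits the precision. The technical SD came from probes with at least 5 spots. Alternatives were quantile, median and cyclic loess normalization, normexp with an offset of 50 on median signals (limma 3.58.1, R 4.3.3), and the authors' values. Further alternatives were the mean over probes, other filters on dim probes and other thresholds. The normexp correction was followed by quantile normalization between the arrays, and both steps included control spots. The counting step was tested on simulated data.

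The members and lists were chosen with earlier results of these data known. All 40 members are described; of each neighbouring list, the 2 highest and 2 lowest of those above background on both arrays are named, with every gene 2-fold or more apart; a gene that this rule names and a marker are not reported here. Promoters are shown for at most 4 members at least 1.2-fold apart in every probe; the dimmest such member, Pklr, was left out. Marker lists of bipolar cells, Müller glia, endothelium and lens were also computed, with median differences of 0.05, 0.06, -0.12 and 1.90. Sums without the brightest marker of a list were added after seeing the data.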

Additional observations from a re-analysis of the deposited data

How the results depend on the processing

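The median of the 38 genes, -0.03 in the main run, stayed between -0.05 and -0.01 under the alternatives run for it. No alternative put a gene of the 40 at least 2-fold higher. Against 1 gene at least 2-fold lower (Hk3, a bound), normexp, a filter for background on both arrays and genes with a mean log2 signal of 0 or more each gave 0, while no filter on dim probes (which adds Pdk4, above background on neither array) and a 1.5-fold threshold (which adds Slc16a8) each gave 2. Against 3 genes 1.2-fold higher and 5 lower, a 1.1-fold threshold gave 5 and 9, normexp 2 and 3, and the brighter genes only 2 and 2. Over all named genes, against 251 higher and 218 lower at 2-fold, normexp gave 125 and 44, genes above background on both arrays 160 and 94, no filter 579 and 671, a 1.5-fold threshold 471 and 510, and the brighter genes only 81 and 19. Fewer genes are tested under the stricter filters by construction, and the normexp offset shrinks dim differences by arithmetic. The normexp values also include the quantile normalization that followed the correction. Of 311 recomputed values of single genes of the 40, 11 moved by more than the technical SD: Hk2 (0.41), Hk3, Pdk2, Pfkfb2 and Pfkfb3 under normexp, Aldoa (-0.15) and Eno1 under quantile normalization, and Gapdh, Ldha, Mpc1 and Pfkfb4 with the mean over probes, where the dim second probe put Pfkfb4 at -0.72. Many of the 311 values could hardly move, so the small number that did is no measure of robustness. Median centring and the authors' values shift every gene by the same small amount. The filters on dim probes keep the value of each gene measured on both arrays. The mean over probes keeps that of the 28 genes with 1 probe. The sign changed in 14 values, each of a gene within 0.03 of 0, and in no gene past 1.2-fold. Of the 8 genes past 1.2-fold, 5 stayed so under normexp and 7 under cyclic loess. Outside the 40, Slc5a1 changed side under normexp, to 0.045; the cause was not tested. The filter on mean signal was chosen after seeing the data. Normexp ran on median signals, since no column of mean spot signal was at hand. No paired analysis was possible because only 1 array stood for each genotype.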
